A study of Mus musculus with 21 samples.

Results

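RAW 264.7 cells, a macrophage-like line grown from a mouse tumour, were measured 2 h after amorphous silica, particles 500 nm across, was given at 500 µg/ml, and compared with untreated cells of the same line. The 3 arrays titled as the mid dose of 500 nm silica and the 3 arrays of untreated cells were taken by their titles, which makes 6 of the 21 arrays of the series. All 22626 non-control probe sets of the 22690 on the Affymetrix mouse array entered the test. The series has 7 groups of 3 arrays: untreated cells, 10 nm silica at 5, 20 and 50 µg/ml, and 500 nm silica at 250, 500 and 1000 µg/ml, named here, within a size, the low, mid and high dose. The particles were given in serum-free medium to cells that had attached in medium with serum. The labels do not say whether untreated cells also lost serum, so the particles and that change of medium cannot be told apart. They name no genetic change in any group, and they do not say that the 3 arrays of a group came from separate cultures. The p-values therefore reflect array-to-array spread alone, and that spread may be technical.

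Macrophages engulf particles through scavenger and other surface receptors and carry them to lysosomes. Within minutes of a stimulus, kinases such as p38, JNK and ERK switch on immediate early genes, which need no new protein to be transcribed. Many of these encode transcription factors, chemokines and the phosphatases that turn the kinases off again. Other programmes answer particular kinds of stress: NRF2 drives antioxidant genes, the integrated stress response acts through ATF4 and CHOP when translation is slowed, and SREBP2 drives sterol synthesis when membrane sterol is low.

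Values are log2 of the deposited intensity, so a difference of 1 is 2-fold, and an SD is over 3 arrays. A probe set was called when limma's adjusted p, over all 22626 probe sets, was under 0.05, and a gene was represented by its brightest probe set, which gave 12393 genes. Across probe sets, which are not independent replicates, r was 0.982 to 0.997 for arrays of 1 group and 0.975 to 0.995 for arrays of different groups. Macrophage markers fitted the label: 7 of 8 measured ones (Adgre1, Cd14, Cd68, Csf1r, Fcgr3, Lyz2 and Mpeg1) lay above the median of all probe sets in both groups, with a summed linear level of 30686 to 33299 in untreated cells and 28887 to 30807 at the mid dose. None of the measured markers of neutrophils (7), dendritic cells (5), B cells (6), fibroblasts (7) or epithelial cells (6) lay above it in either group. Of 6 T cell markers, Cd28 lay above it in untreated cells and Cd28 and Cd3e at the mid dose (summed level 314 to 403 and 412 to 531), and of 7 osteoclast markers, Acp5 and Nfatc1 in both groups. limma called 0 of the 52 measured markers, of which 4 were higher and 1 lower at an unadjusted p under 0.05. Untreated replicate 3 stood apart. Its control transcripts gave a 3 prime minus 5 prime difference of 1.68, an index that rises as RNA degrades, against 0.64 and 0.69 on the other untreated arrays and 0.91, 0.59 and 0.79 on the mid dose arrays. Results that rest on it are given without it as well.

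The response was led by rises: a chemokine, kinase regulators and stress transcription factors rose up to 27.4-fold, while no gene fell by as much as 3-fold. Of the 12393 genes, 151 rose (1.22%) and 175 fell (1.41%), with 52 of the rises and 8 of the falls at least 2-fold. On the level of probe sets, 224 rose (0.990%) and 341 fell (1.51%), with 74 of the rises and 25 of the falls at least 2-fold. The median change was 0.78 among the genes that rose, -0.60 among those that fell and 0.023 over all genes. In each called gene the 3 mid dose arrays lay beyond the 3 untreated ones, which was also the case upward for 961 genes (7.75%) and downward for 1231 genes (9.93%) of all tested. At an unadjusted p under 0.05 there were 558 genes higher and 926 lower. Of 140 called genes with several probe sets, 50 had another set called the same way and 0 had one called the opposite way.

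The split between rises and falls depended on the scaling of the arrays. It moved from 224 and 341 probe sets to 261 and 250 after median centring of the arrays, to 282 and 278 after quantile normalization and to 284 and 230 with each array also rescaled to one SD. The number of falls also varied with single arrays. The 341 lower probe sets became 160 without untreated replicate 3, and 165, 220 and 174 without mid dose replicates 1, 2 and 3, while the 224 higher ones ranged from 163 to 205. Among genes, 95 of the 151 rises and 62 of the 175 falls were called without any one of the 6 arrays. Without untreated replicate 3, 116 of the rises and 77 of the falls were still called.

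**Figure D1:**
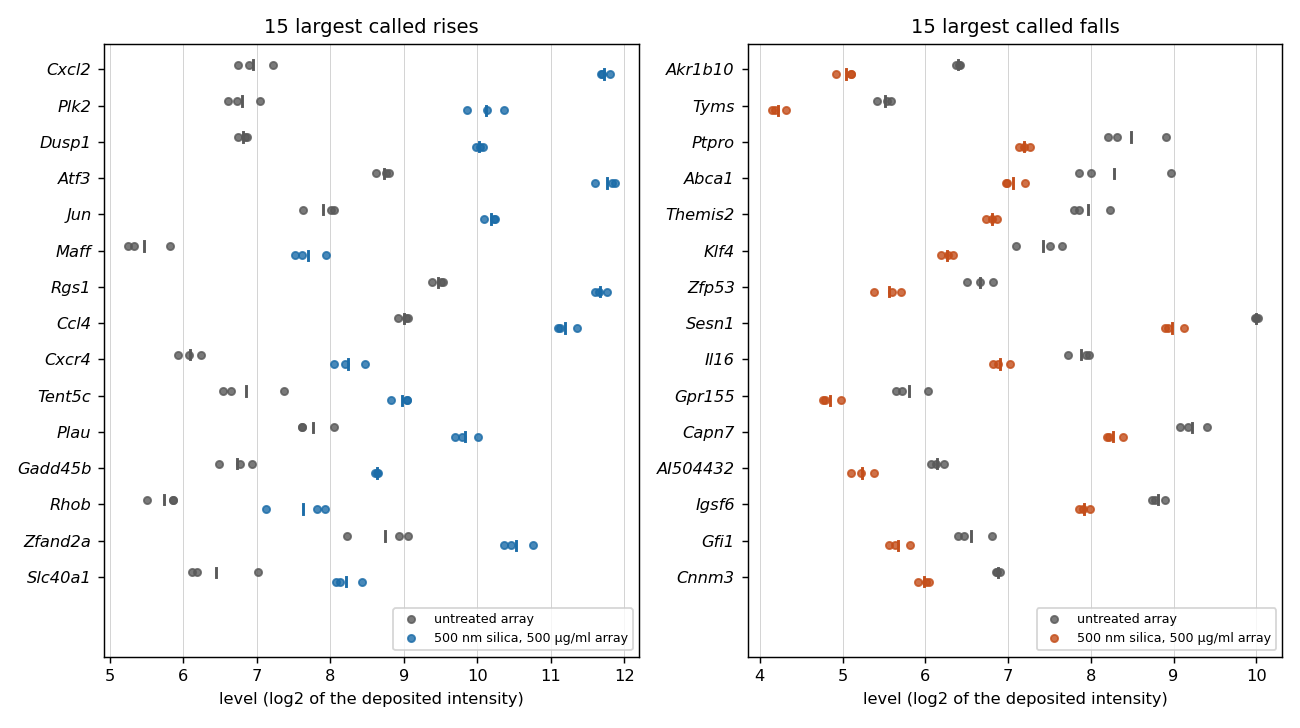
Levels of the 15 genes with the largest called rise (left) and the 15 with the largest called fall (right), 1 point per array; the x axis is log2 of the deposited intensity, grey points are untreated arrays, coloured points are arrays of 500 nm silica at 500 µg/ml, and vertical ticks are means of 3 arrays. Cxcl2 runs from 6.74 to 7.22 on untreated arrays and from 11.68 to 11.80 at the mid dose. No gene's groups overlap, which the choice of these genes required.

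Cxcl2, a chemokine that draws neutrophils, had the largest rise. It stood at 6.74, 6.89 and 7.22 on the untreated arrays and at 11.70, 11.80 and 11.68 on the mid dose arrays. All mid dose arrays lay far above all untreated ones, a 27.4-fold rise (log2 change 4.78 ± 0.13 SE, limma adjusted p = 3e-14). Its promoter is shown because it holds the NF-kB letters searched for (GGANTTTCC, in capitals), which begin 96 bases before the start site. The window, from RefSeq on GRCm38.p6, is chr5:90903649-90903948 on the plus strand and, as for all windows here, runs from 250 bases before the start of the gene to 50 after it.
Cxcl2: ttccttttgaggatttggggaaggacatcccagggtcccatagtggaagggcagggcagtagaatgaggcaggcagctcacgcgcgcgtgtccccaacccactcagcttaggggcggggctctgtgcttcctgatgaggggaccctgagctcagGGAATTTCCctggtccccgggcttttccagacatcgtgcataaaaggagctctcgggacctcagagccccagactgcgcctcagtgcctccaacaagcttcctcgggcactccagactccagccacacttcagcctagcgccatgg

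Plk2, a polo-like kinase induced by stress, rose 10.0-fold, second to Cxcl2. Its levels were 7.04, 6.61 and 6.72 in untreated cells and 10.13, 10.36 and 9.86 at the mid dose (log2 change 3.33 ± 0.26 SE, adjusted p = 2.53e-07). Dusp1, the phosphatase that inactivates p38 and JNK, rose 9.27-fold. It stood at 6.84, 6.74 and 6.86 against 10.07, 10.03 and 9.98 (SD 0.06 and 0.05), again without overlap. The log2 change was 3.21 ± 0.09 SE (adjusted p = 8.38e-14). Zfand2a, a stress-induced zinc finger protein that acts on the proteasome, moved from 9.06, 8.93 and 8.22 to 10.45, 10.76 and 10.36 (log2 change 1.79 ± 0.24 SE, adjusted p = 0.000226), with untreated replicate 3 the lowest array. Ppp1r15a, which restores translation after stress, stood at 7.88, 7.63 and 7.26 in untreated cells and at 9.36, 9.23 and 9.15 with silica (log2 change 1.66 ± 0.19 SE, adjusted p = 3.18e-05). In none of these 4 genes did the arrays of the groups overlap. Their promoters are shown together because each holds the whole cyclic AMP response element, TGACGTCA, in capitals. It begins 62 bases before the start site in Plk2 (chr13:110394794-110395093, plus strand), 143 before it in Dusp1 (chr17:26508423-26508722, minus strand), 125 before it in Zfand2a (chr5:139484442-139484741, minus strand) and 12 before it in Ppp1r15a (chr7:45526219-45526518, minus strand). The other capitals in Dusp1 and Ppp1r15a are the antioxidant response element TGACNNNGC, there on the opposite strand. All are RefSeq windows on GRCm38.p6, written along the strand of the gene, and that reference is of the C57BL/6J strain, not of the cell line.
Plk2: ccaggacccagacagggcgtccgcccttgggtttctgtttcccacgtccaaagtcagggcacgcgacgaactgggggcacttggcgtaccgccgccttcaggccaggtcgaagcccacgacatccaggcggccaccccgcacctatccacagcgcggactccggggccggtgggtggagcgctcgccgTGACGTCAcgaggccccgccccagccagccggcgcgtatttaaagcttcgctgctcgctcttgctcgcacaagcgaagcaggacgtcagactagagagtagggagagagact
Dusp1: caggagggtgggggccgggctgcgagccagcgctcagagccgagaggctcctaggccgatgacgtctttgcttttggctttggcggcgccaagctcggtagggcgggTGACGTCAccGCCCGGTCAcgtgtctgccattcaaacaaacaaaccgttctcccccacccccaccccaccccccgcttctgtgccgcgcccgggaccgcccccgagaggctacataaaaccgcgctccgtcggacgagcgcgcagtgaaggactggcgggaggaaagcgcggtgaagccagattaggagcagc
Zfand2a: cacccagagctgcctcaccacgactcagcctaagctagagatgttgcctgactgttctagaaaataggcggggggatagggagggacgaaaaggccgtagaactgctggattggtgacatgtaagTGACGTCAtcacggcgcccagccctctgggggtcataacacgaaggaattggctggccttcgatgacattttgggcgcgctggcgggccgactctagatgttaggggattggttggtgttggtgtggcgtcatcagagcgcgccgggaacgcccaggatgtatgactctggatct
Ppp1r15a: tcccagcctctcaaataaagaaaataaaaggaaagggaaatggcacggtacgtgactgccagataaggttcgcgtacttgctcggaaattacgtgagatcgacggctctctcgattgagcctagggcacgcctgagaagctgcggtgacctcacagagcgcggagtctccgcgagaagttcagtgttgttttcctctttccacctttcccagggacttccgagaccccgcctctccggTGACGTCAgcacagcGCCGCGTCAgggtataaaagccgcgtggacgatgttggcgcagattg

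Promoter windows were found for 118 of the 151 genes that rose (147 windows) and 145 of the 175 that fell (203 windows). Exact letters were searched on both strands, and a match describes the sequence without showing a bound site. The cyclic AMP response element was in 6.80% of the windows of genes that rose and 0.985% of those of genes that fell, against 1.79% of all 32851 windows in the table and 2.52% of those of all measured genes. For the NF-kB letters the shares were 4.76% and 2.46% against 1.25% and 1.42%, in the same order. For the antioxidant element, whose letters can share bases with the AP-1 site, they were 21.8% and 10.3% against 12.4% and 13.8%. For the AP-1 site TGANTCA they were 8.16% and 3.94% against 7.81% and 6.45%. The amino acid response element TGATGNAAT was in 0.680% and 0% against 0.965% and 0.518%. The sterol response element TCACNCCAC was in 1.36% and 0.985% against 1.24% and 1.22%. Among the 47 windows of genes that rose at least 2-fold, 6 held the cyclic AMP response element (12.8%) and 4 the NF-kB letters (8.51%). No test was made of these shares. The windows of Atf3, Jun, Klf4 and Tnf held none of the 6 motifs.

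The gene lists used from here on were chosen with earlier results of these data known, so their counts are descriptions. Of the immediate early genes, 16 of 33 measured members rose and 1 fell, with a median change of 0.68, against 1.22% and 1.41% of all genes. Plk2, described above, changed most among them. Atf3, a stress-induced repressor, moved from 8.62, 8.75 and 8.79 to 11.83, 11.87 and 11.60 (log2 change 3.04 ± 0.11 SE, adjusted p = 2.35e-12). Jun, a subunit of AP-1, lay between 7.62 and 8.06 on the 3 untreated arrays and moved to 10.23, 10.24 and 10.08 (2.29 ± 0.12 SE, adjusted p = 1.18e-09), and its other probe set was also called (1.99). Maff, a small Maf factor that pairs with NRF2, moved from 5.25, 5.33 and 5.81 to 7.94, 7.61 and 7.52 (2.23 ± 0.15 SE, adjusted p = 3.27e-08). In none of the 3 did the groups overlap. Among the others that rose were the Krüppel-like factors Klf6 (1.57) and Klf2 (1.11), the small GTPase Rhob (1.89), the kinase Plk3 (1.51), Ier3 (1.54) and Ier5 (0.88), the mRNA decay factor Zfp36 (1.29), the prostaglandin synthase Ptgs2 (1.17) and the AP-1 subunit Fosl1 (1.06).

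The Fos and Egr genes had small or uncalled changes. Fos stood at 6.97, 7.35 and 7.66 in untreated cells and at 8.10, 8.12 and 8.18 at the mid dose (log2 change 0.81 ± 0.19 SE, adjusted p = 0.0291). Its call ended when any of the mid dose arrays or untreated replicate 1 or 2 was left out (adjusted p 0.0713 to 0.139). Egr1 stood at 10.47, 10.44 and 10.95 against 11.41, 11.04 and 11.37 (0.66 ± 0.17 SE, adjusted p = 0.0411). That call ended without mid dose replicates 1 and 3 or untreated replicates 1 and 2, each in turn (adjusted p 0.143 to 0.185). Nab2, which represses Egr factors, rose by a log2 change of 0.68 (adjusted p = 0.0342), a call that ended without untreated replicate 3 or any single mid dose array (0.0525 to 0.206). Fosb (0.75, adjusted p = 0.14), Junb (0.57, 0.26), Nr4a1 (0.37, 0.47), Egr3 (0.17, 0.83) and Myc (0.09, 0.9) did not pass the test.

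Among the genes that restrain MAP kinases and G protein signals, 6 of 18 rose and 1 fell (median 0.24). Besides Dusp1, Rgs1, which shortens signals from G protein coupled receptors, moved from 9.53, 9.50 and 9.38 to 11.66, 11.76 and 11.60 (log2 change 2.20 ± 0.09 SE, adjusted p = 1.14e-11). Dusp2, a phosphatase of nuclear MAP kinases, stood at 7.99, 7.89 and 8.50 against 9.48, 9.32 and 9.57 (1.33 ± 0.17 SE, adjusted p = 0.000106). The rest of the rises were those of Dusp16 (0.90), Rgs2 (0.70) and Dusp8 (0.55, adjusted p 0.0188, and 0.058 to 0.0692 without 1 of 5 arrays, all but untreated replicate 2). Dusp6, the phosphatase specific to ERK, fell by 0.69, from 7.70, 7.65 and 7.89 to 7.20, 7.17 and 6.80. The call of Dusp6 ended without untreated replicate 3 (adjusted p = 0.072) and without mid dose replicate 3 (0.0953).

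Among 28 cytokines and chemokines 6 rose and 1 fell (median 0.13). The CC chemokine Ccl4, which draws monocytes and lymphocytes, moved from 8.92, 9.03 and 9.05 to 11.35, 11.10 and 11.13 (log2 change 2.19 ± 0.12 SE, adjusted p = 1.63e-09). Its neighbour in function Ccl3 was already high, at 11.71, 11.80 and 10.97, and reached 13.19, 13.26 and 13.22 (1.73 ± 0.15 SE, adjusted p = 9.89e-07). Tnf, the early inflammatory cytokine, moved from 9.40, 9.38 and 9.11 to 11.00, 10.97 and 10.87 (1.64 ± 0.12 SE, adjusted p = 6.38e-08). These chemokines and Tnf separated on every array. Cxcl10 (0.97) and Csf1 (0.51) also rose, and Il15 fell by 0.60 from a dim level. Csf1 lost its call without 1 of 5 arrays (adjusted p 0.057 to 0.269, all but mid dose replicate 2), Cxcl10 without untreated replicate 3 (0.11) or mid dose replicate 2 (0.1), and Il15 without 1 of 5 arrays (0.0565 to 0.129, all but untreated replicate 1). The other inflammatory cytokines were flat or did not pass: Il1b changed by 0.05, Il6 by 0.00, Il1a by 0.22, Cxcl1 by 0.11, Ccl2 by 0.55 and the interleukin 1 antagonist Il1rn by 1.03 (adjusted p = 0.082).

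In the NF-kB list 5 of 22 rose and 1 fell, with a median of 0.02. Gadd45b, which acts on stress kinases, rose from 6.49, 6.93 and 6.77 to 8.61, 8.65 and 8.64 (log2 change 1.91 ± 0.12 SE, adjusted p = 1.05e-08). Of its 2 other probe sets, at 0.57 and 1.75, 1 was called. Nfkbiz (0.94), Traf1 (0.90), the subunit gene Rel (0.72) and the caspase-8 inhibitor Cflar (1.35) rose as well, and the inhibitor Nfkbie fell by 0.71. The feedback inhibitors Nfkbia (-0.01) and Tnfaip3 (-0.14) did not pass. The count of rises was 3 without mid dose replicate 1. Single arrays ended the calls of Cflar (adjusted p = 0.052 without untreated replicate 3), Rel (0.0517 and 0.0759 without mid dose replicates 1 and 2), Nfkbiz (0.0659 to 0.0814, without 1 of 4 arrays, mid dose 1 and 3 and untreated 1 and 2) and Nfkbie (0.101 to 0.165, all but untreated replicate 1).

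Cxcr4, the receptor for CXCL12, moved from 5.93, 6.08 and 6.24 to 8.48, 8.19 and 8.05 (log2 change 2.16 ± 0.17 SE, adjusted p = 2.06e-07). Plau, the urokinase that activates plasminogen, moved from 7.61, 8.05 and 7.61 to 9.78, 10.01 and 9.70 (2.07 ± 0.12 SE, adjusted p = 2.78e-09), and its other probe set gave 1.99. Its list of growth factors, matrix genes and proteases had 3 of 26 risen and 0 fallen (median 0.06). The EGF family ligand Hbegf was the second, from 5.13, 5.30 and 5.37 to 6.45, 6.22 and 6.56 (1.14 ± 0.19 SE, adjusted p = 0.00122). Pdgfb, the last of the 3, had untreated replicate 3 far below its fellows (7.89, 7.79 and 6.70 against 8.65, 8.84 and 8.42). Its log2 change of 1.18 (adjusted p = 0.0375) was 0.80 without that array (0.229), and the call also ended without any single mid dose array (0.0713 to 0.142). The urokinase receptor gene Plaur had a log2 change of 1.03 (adjusted p = 0.1).

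**Figure D2:**
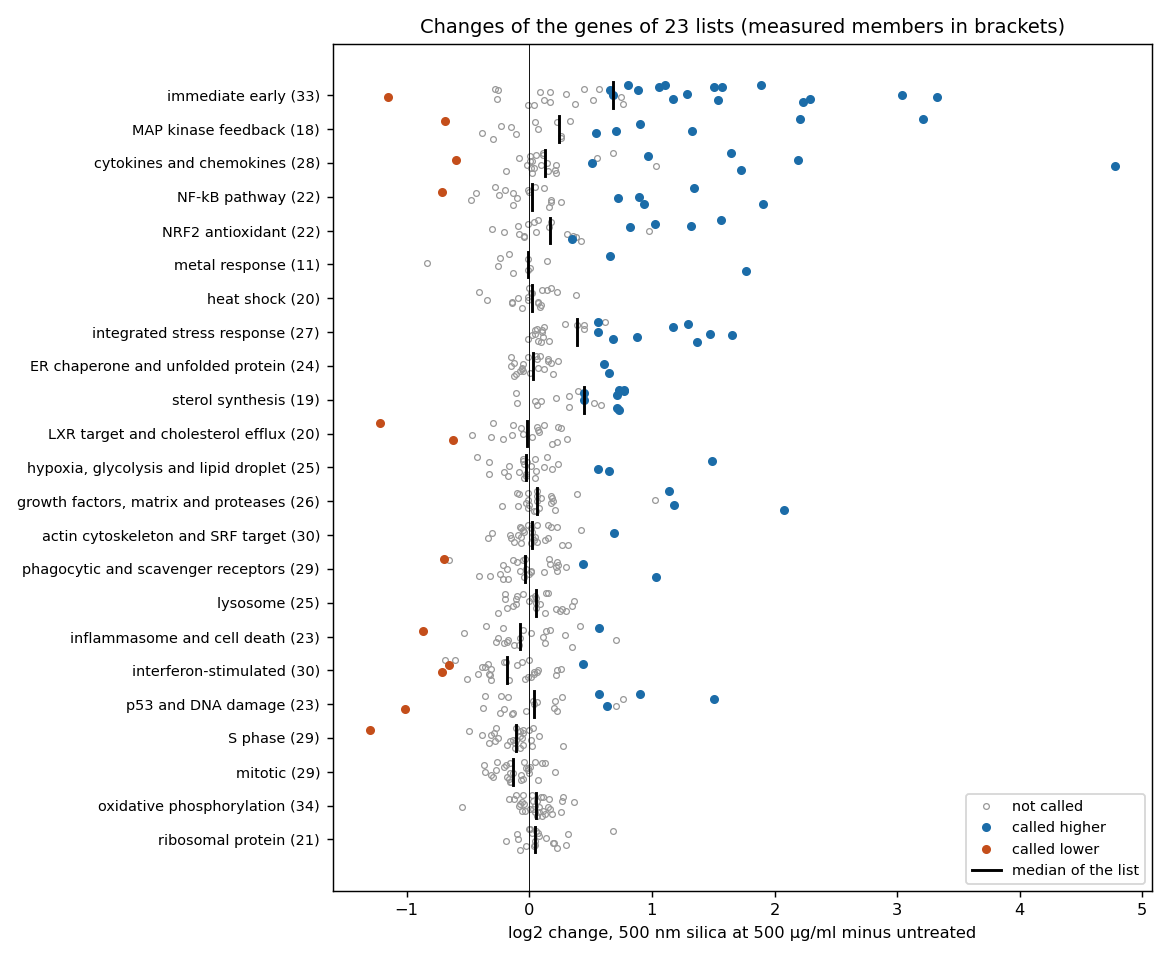
Log2 change from untreated cells to 500 nm silica at 500 µg/ml (x axis) for each measured gene of the 23 lists (y axis, number of measured genes in brackets); filled blue and orange points were called higher and lower, open points were not called, and black ticks are list medians. The immediate early genes have the highest median (0.68), followed by sterol synthesis (0.45) and the integrated stress response (0.39).

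Among NRF2 antioxidant genes 5 of 22 rose and 0 fell, with a median of 0.17. Slc7a11, the cystine importer that feeds glutathione synthesis, moved from 7.28, 7.23 and 7.30 to 8.47, 8.83 and 8.46 (log2 change 1.32 ± 0.13 SE, adjusted p = 4.04e-06). Srxn1, which repairs oxidised peroxiredoxin, moved from 8.30, 8.44 and 8.38 to 9.43, 9.50 and 9.27 (1.03 ± 0.13 SE, adjusted p = 8.17e-05). The groups of both genes were well apart. Hmox1, which breaks down haem, had a log2 change of 1.56 (9.21, 9.29 and 8.61 to 10.64, 10.87 and 10.28, adjusted p = 0.00744), and 0.0528 without untreated replicate 3. Osgin1 (0.82) rose too, as did Nfe2l2, the gene of NRF2 itself (0.35), whose call ended without any one of the 6 arrays (adjusted p 0.0525 to 0.0906). The list had 3 rises without untreated replicate 3. Nqo1 (-0.21), Gclm (0.31) and Txnrd1 (0.36) did not pass. The promoter of Srxn1 is shown because it holds 2 AP-1 sites, 102 and 45 bases before the start site, and 1 antioxidant element 28 bases after it, all in capitals (RefSeq, GRCm38.p6, chr2:152105274-152105573, plus strand).
Srxn1: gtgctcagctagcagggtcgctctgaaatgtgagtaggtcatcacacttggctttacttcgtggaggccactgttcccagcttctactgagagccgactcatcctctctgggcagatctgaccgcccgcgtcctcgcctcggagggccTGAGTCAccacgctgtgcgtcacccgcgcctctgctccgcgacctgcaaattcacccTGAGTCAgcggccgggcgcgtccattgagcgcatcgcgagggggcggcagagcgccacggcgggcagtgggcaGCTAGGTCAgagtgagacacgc

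Of 11 metal genes, 2 rose and 0 fell (median -0.01). Slc40a1, ferroportin, the only known exporter of iron from cells, moved from 6.18, 6.12 and 7.01 to 8.13, 8.07 and 8.42 (log2 change 1.77 ± 0.21 SE, adjusted p = 3.67e-05), and its other probe set was called too (1.53). Untreated replicate 3 was the highest untreated array and still lay below every mid dose array. The zinc exporter Slc30a1 rose by 0.66, but not without untreated replicate 3 (adjusted p = 0.118) or mid dose replicates 2 (0.104) and 3 (0.0554), so that the count was 1 in each of these. The metallothioneins Mt1 (-0.17) and Mt2 (-0.26) did not pass. limma called 0 of 20 cytosolic heat shock genes (median 0.02; 1 higher and 1 lower at an unadjusted p under 0.05), Hspa4l having the smallest p (-0.41, adjusted p = 0.0941).

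In the integrated stress response list 9 of 27 rose and 0 fell (median 0.39). Ddit3, which encodes CHOP, moved from 7.68, 7.76 and 7.58 to 9.16, 9.16 and 9.12 (log2 change 1.47 ± 0.12 SE, adjusted p = 2.68e-07). Ddit4, an inhibitor of mTORC1, moved from 7.80, 7.92 and 7.50 to 8.96, 9.24 and 9.10 (1.36 ± 0.12 SE, adjusted p = 1.52e-06). Trib3, a pseudokinase that CHOP induces, moved from 7.36, 7.10 and 6.72 to 8.20, 8.52 and 8.35 (1.30 ± 0.14 SE, adjusted p = 8.5e-06). With Ppp1r15a these were the largest rises of the list, and none overlapped with untreated cells. Sesn2 (1.17), the glutathione-degrading enzyme gene Chac1 (0.88), Cebpb (0.68), Mthfd2 (0.56) and the angiogenic factor Vegfa (0.56) also rose. Atf4 itself had a log2 change of 0.62 (adjusted p = 0.13) and Asns of 0.39 (0.079). Calls ended without 1 array for Sesn2 (adjusted p = 0.0583, untreated replicate 1), Cebpb (0.0524 to 0.0781, mid dose replicates 1 and 2 and untreated replicate 3), Mthfd2 (0.0637 to 0.101, mid dose replicates 1 and 2 and untreated replicates 1 and 3) and Vegfa (0.051 to 0.139, all but mid dose replicate 3). Of the genes of endoplasmic reticulum chaperones and the unfolded protein response 2 of 24 rose and 0 fell (median 0.03). These were Dnajb9 (0.65) and Herpud1 (0.61, adjusted p 0.0517 to 0.167 without 1 of 5 arrays, all but untreated replicate 1), while Hspa5 (0.06) and Xbp1 (-0.13) did not pass.

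Of 19 measured sterol synthesis genes 8 rose and 0 fell, and the 19 had a median change of 0.45, from -0.11 to 0.77. Cyp51, the lanosterol demethylase, moved from 9.26, 9.21 and 9.46 to 10.10, 9.96 and 10.03 (log2 change 0.71 ± 0.11 SE, adjusted p = 0.000609). Msmo1, a sterol oxidase, moved from 10.21, 10.04 and 10.06 to 10.77, 10.98 and 10.74 (0.73 ± 0.11 SE, adjusted p = 0.000695). Sc5d, a sterol desaturase, moved from 9.52, 9.36 and 9.14 to 10.02, 10.27 and 10.04 (0.77 ± 0.13 SE, adjusted p = 0.00146). No array of these 3 genes fell within the range of the other group. Fdft1 (0.72), Nsdhl (0.45), Idi1 (0.45), Hsd17b7 (0.77) and Hmgcs1 (0.73) made up the 8. Hmgcs1, which makes HMG-CoA, had untreated replicate 3 close to the mid dose arrays (10.32, 10.45 and 11.16 against 11.49, 11.27 and 11.35, adjusted p = 0.0428). Its call ended without any of the other 5 arrays (0.0835 to 0.185), after quantile normalization (0.0867) and after rescaling (0.127). The list had 5 rises without untreated replicate 1, 9 without untreated replicate 3, and 0 when the 6 arrays were fitted alone. The calls of Hsd17b7 (0.0806 to 0.119) and Idi1 (0.069 and 0.0794) ended without untreated replicate 1 and, in turn, mid dose replicates 2 and 3 for the first and 1 for the second. The Hmgcs1 promoter is shown because it holds the sterol response element letters, in capitals, beginning 137 bases before the start site (RefSeq, GRCm38.p6, chr13:119690101-119690400, plus strand). The windows of Hsd17b7, Msmo1 and Sc5d held no such letters, while a window of Sesn1, a gene that fell, did.
Hmgcs1: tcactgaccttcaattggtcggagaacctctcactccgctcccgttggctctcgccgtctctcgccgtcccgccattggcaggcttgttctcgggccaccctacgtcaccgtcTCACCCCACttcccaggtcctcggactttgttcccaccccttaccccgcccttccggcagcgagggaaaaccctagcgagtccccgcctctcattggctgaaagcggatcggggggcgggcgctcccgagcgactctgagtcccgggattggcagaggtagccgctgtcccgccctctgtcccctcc

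Among LXR target and cholesterol efflux genes 0 of 20 rose and 2 fell (median -0.02). Abca1, the exporter of cholesterol to apolipoprotein A-I, stood between 7.86 and 8.97 in untreated cells, with replicate 3 the highest, and at 6.99, 6.98 and 7.20 at the mid dose (log2 change -1.22 ± 0.23 SE, adjusted p = 0.0041). Its 2 other probe sets gave -0.46 and -0.43 and were not called. Mylip, which marks the LDL receptor for degradation, fell by 0.62 (8.02, 7.87 and 8.19 to 7.46, 7.39 and 7.36, adjusted p = 0.00388). Abcg1, the other main exporter, had a change of -0.14 (adjusted p = 0.87). Angptl4, a lipase inhibitor that belongs to none of the lists and was picked after its values were seen, fell by 0.83 (adjusted p = 0.000504).

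Among the 15 largest falls were enzymes, signalling proteins and transcription factors with no shared list. Akr1b10, an aldo-keto reductase, fell from 6.41, 6.37 and 6.42 to 4.92, 5.10 and 5.10 (log2 change -1.36 ± 0.13 SE, adjusted p = 4.62e-06), and its other probe set gave -0.49, not called. Ptpro, a receptor tyrosine phosphatase, fell from 8.31, 8.21 and 8.91 to 7.14, 7.19 and 7.26 (-1.28 ± 0.14 SE, adjusted p = 1.77e-05). Klf4, a factor of monocyte differentiation and the single immediate early gene that fell, moved from 7.10, 7.66 and 7.51 to 6.19, 6.33 and 6.27 (-1.15 ± 0.17 SE, adjusted p = 0.000426), and its other probe set was called as well (-1.21). In none of the 3 did a treated array reach an untreated one. Themis2, which tunes Toll-like receptor signals in macrophages, fell by 1.16, and Igsf6, an immunoglobulin superfamily member, by 0.89. Il16, a precursor of a chemoattractant, fell by 0.97, the zinc finger gene Zfp53 by 1.10, the repressor Gfi1 by 0.89, Gpr155 by 0.95, the protease Capn7 by 0.95, AI504432 by 0.91 and Cnnm3 by 0.89. Of the 3 other probe sets of Cnnm3, 0 were called (-0.33 to 0.06). All 30 of the largest rises and falls were called without any one of the 6 arrays.

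The sestrins split. Sesn1 fell from 9.99, 9.98 and 10.02 to 8.93, 9.13 and 8.89 (log2 change -1.02 ± 0.14 SE, adjusted p = 0.00032), and both of its other probe sets were called (-0.99 each), whereas Sesn2 stood higher at the mid dose (7.14, 7.71 and 7.97 to 8.78, 8.69 and 8.85). Both encode leucine-sensing inhibitors of mTORC1. In the p53 and DNA damage list, which holds Sesn1, 4 of 23 rose and 1 fell (median 0.04). Plk3 rose from 6.53, 6.47 and 6.02 to 7.83, 8.15 and 7.58 (1.51 ± 0.21 SE, adjusted p = 0.000224). Mdm2, the ubiquitin ligase of p53 (0.91), the cell cycle inhibitor Cdkn1a (0.63) and the apoptosis promoter Bbc3 (0.57) were the other rises. The call of Bbc3 ended without mid dose replicate 2 (adjusted p = 0.0849) and without untreated replicate 1 (0.0535). In the cell cycle lists, 0 of 29 S phase genes rose and 1 fell (median -0.11), against 1.22% and 1.41% of all genes. limma called 0 of 29 mitotic genes (median -0.13), with 0 higher and 5 lower at an unadjusted p under 0.05. Among the mitotic genes Bub1b had the smallest limma p (-0.27, adjusted p = 0.13). The 1 fall was that of the thymidylate synthase gene Tyms, from 5.59, 5.54 and 5.42 to 4.19, 4.32 and 4.15 (-1.30 ± 0.15 SE, adjusted p = 3.05e-05). It was seen on the brightest of its probe sets alone, since the 2 others gave -0.05 and 0.12.

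Of 29 phagocytic and scavenger receptors 2 rose and 1 fell (median -0.04), against 1.22% and 1.41% of all genes. At an unadjusted limma p under 0.05, 3 were higher and 4 lower. Clec4e, Mincle, which binds glycolipids and signals of cell damage, moved from 9.59, 9.47 and 10.01 to 10.65, 10.77 and 10.75 (log2 change 1.03 ± 0.12 SE, adjusted p = 3.67e-05). Fcgr2b, the inhibitory Fc receptor, rose by 0.44, and Tlr4, the receptor for endotoxin, fell by 0.70. Fcgr2b lost its call without any 1 of the 6 arrays (adjusted p 0.0514 to 0.18), after quantile normalization (0.0638) and after rescaling (0.122). Tlr4 lost it without untreated replicate 3 (0.0872) or mid dose replicates 1 (0.0779) and 3 (0.0827). The scavenger receptors Msr1 (0.16), Marco (-0.08) and Cd36 (-0.66, adjusted p = 0.091) did not pass. limma called 0 of 25 lysosomal genes (median 0.05; 1 higher and 1 lower at an unadjusted p under 0.05), Atp6v1h having the smallest p (0.36, adjusted p = 0.27).

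For the remaining lists, the calls are given beside 1.22% higher and 1.41% lower of all genes. In the hypoxia, glycolysis and lipid droplet list 3 of 25 rose and 0 fell (median -0.02): Hilpda, an inhibitor of lipid droplet breakdown, from 7.04, 7.15 and 6.41 to 8.27, 8.54 and 8.26 (log2 change 1.49 ± 0.26 SE, adjusted p = 0.00238), Ndrg1 (0.65) and Vegfa. With the mean of its probe sets Ndrg1 was at 0.60 and lost its call (adjusted p = 0.0603). Among 30 actin and SRF targets 1 rose, Rhoc (0.69), and 0 fell (median 0.02). The call of Rhoc ended with the mean of its probe sets (0.76, adjusted p = 0.167) and with the 6 arrays alone (0.0617). Of the inflammasome and cell death genes 1 of 23 rose, Bbc3, and 1 fell, the flagellin sensor Naip5 (-0.87), with Nlrp3 at 0.42 (adjusted p = 0.25) and a median of -0.08. The call of Naip5 ended without untreated replicate 3 (0.0746) and without mid dose replicate 2 (0.0627). Of 30 interferon-stimulated genes Usp18 rose (0.44) and Ifit2 (-0.71) and Cmpk2 (-0.65) fell, with a median of -0.18. At an unadjusted limma p under 0.05, 1 of the 30 was higher and 10 were lower, against 558 and 926 of all 12393 genes. Without untreated replicate 3 limma called 0 members of that list in either direction (adjusted p = 0.215 for Usp18, 0.0921 for Ifit2 and 0.0969 for Cmpk2), and Ifit2 and Cmpk2 also lost their calls without mid dose replicates 1 and 3. With the mean of its probe sets Cmpk2 was at -0.25 and was not called (adjusted p = 0.306). Usp18 lost its call without 1 of 5 arrays, all but untreated replicate 1 (0.0953 to 0.215). limma called 0 of 34 oxidative phosphorylation genes (median 0.05; 0 higher and 1 lower at an unadjusted p under 0.05), with the smallest p in Cox7c (-0.55, adjusted p = 0.1). It also called 0 of 21 ribosomal protein genes (median 0.05; 0 in either direction at an unadjusted p under 0.05), with the smallest p in Rps24 (0.32, adjusted p = 0.662).

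The neighbouring doses show how far the response had come at 500 µg/ml. Compared directly with 250 µg/ml, 46 genes were higher (0.371%) and 8 lower (0.0646%). Cxcl2 was at 8.68 ± 0.03 at the low dose, and Dusp1 at 7.59 ± 0.13 (SD, n = 3). The differences from the mid dose were 3.05 ± 0.13 (adjusted p = 4.14e-11) for Cxcl2, 2.44 ± 0.09 for Dusp1 (2.24e-11) and 1.61 ± 0.26 (SE) for Plk2 (0.00449), the 3 largest. Of the immediate early genes 14 of 33 were higher than at the low dose and 0 lower, and of the integrated stress response genes 3 of 27 were higher. limma called 0 of the 19 sterol genes in this step, where their median was 0.26 and 11 were higher at an unadjusted p under 0.05. Among the 8 genes that were lower, the histone gene H3c4 stood out by size: it was at 4.99 ± 0.11 in untreated cells, 6.70 at the low dose and 5.24 ± 0.30 at the mid dose (mid minus low -1.46 ± 0.19 SE, adjusted p = 0.000442). Tyms (-0.71) and Gpr34 (-0.67) were next. The arrays of equal number deviated together in these groups, and with the replicate number as a block the calls grew from 63 to 102 probe sets higher and from 33 to 55 lower. Each array mattered: without mid dose replicates 1 and 2 or low dose replicates 2 and 3 there were 41, 39, 34 and 36 higher probe sets, and without each of the 6 arrays between 13 and 17 lower ones.

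At 1000 µg/ml, 84 genes were higher than at 500 µg/ml (0.678%) and 143 lower (1.15%). Gadd45b was higher still at 10.13 (high minus mid 1.50 ± 0.12 SE, adjusted p = 1.21e-06), as were Pim1, a survival kinase, at 8.90 (1.41 ± 0.24, 0.00372), and the linker histone gene H1f2 at 10.57 (1.40 ± 0.11, 1.21e-06). H1f2 was at 7.92 ± 0.14 in untreated cells, 8.08 at the low and 9.16 ± 0.04 (SD, n = 3) at the mid dose. Its 2 other probe sets gave 0.07 and 1.31 at the mid dose against untreated cells. Pim1 rose by 0.96 at the mid dose, a call that ended without any array but untreated replicate 3 (adjusted p 0.074 to 0.141) and after quantile normalization (0.0693) and rescaling (0.0653). The largest falls in this step were those of Calhm2 (-1.15), Rin2 (-1.14) and the leukotriene receptor gene Cysltr1 (-1.13). Of the immediate early genes 10 of 33 rose again and 0 fell. Single arrays changed these counts: 120 higher probe sets became 69 and 57 without mid dose replicates 1 and 3 and 62 and 78 without high dose replicates 1 and 3. The 266 lower ones became 110, 101 and 88 without mid dose replicates 1, 2 and 3, and 133 and 78 without high dose replicates 1 and 3.

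**Figure D3:**
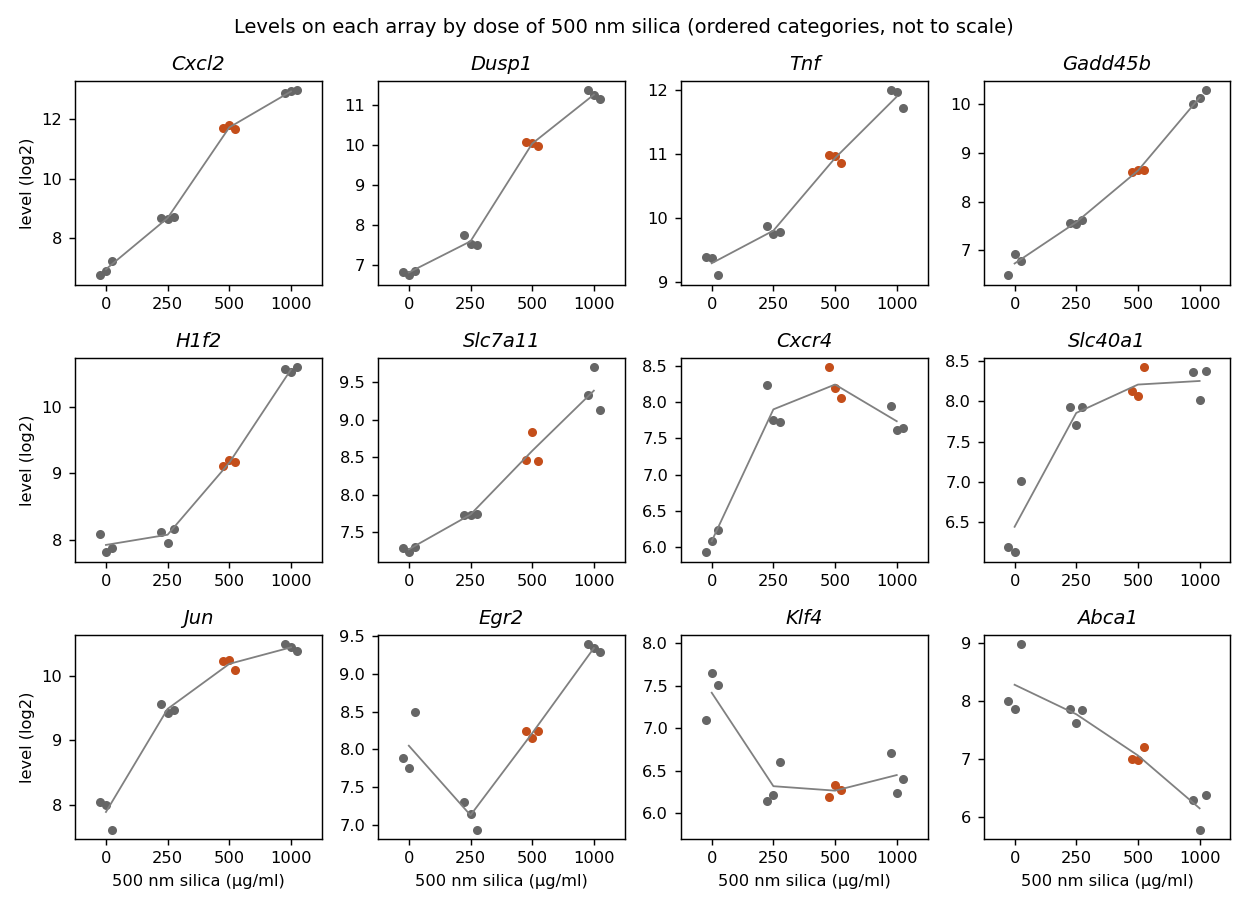
Levels of 12 genes on each array in untreated cells and at 250, 500 and 1000 µg/ml of 500 nm silica; the y axis is log2 of the deposited intensity, doses are ordered categories, orange points are the 500 µg/ml arrays and the line joins means of 3 arrays. Cxcl2, Dusp1, Tnf and Gadd45b are higher at each dose, Cxcr4 and Slc40a1 are near their mid dose level (8.24 and 8.21) at the low dose already, and Egr2 is lowest at 250 µg/ml.

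Not all genes followed the dose. Cxcr4 stood at 7.90 at the low, 8.24 ± 0.22 (SD, n = 3) at the mid and 7.73 at the high dose, and neither step passed the test (mid minus low 0.34, adjusted p = 1; high minus mid -0.51, 0.176). Slc40a1 stood at 7.86, 8.21 and 8.25, likewise with neither step called (0.35, adjusted p = 1, and 0.04, 0.994). Klf4 was at 6.32, 6.27 and 6.45, again with neither called (-0.05, adjusted p = 1, and 0.18, 0.836). For Egr2, whose product drives macrophage differentiation, the level was 8.05 ± 0.40 in untreated cells and 8.21 ± 0.06 at the mid dose (SD, n = 3; log2 change 0.17, limma adjusted p = 0.802). With array weights that change was 0.40 and was called (adjusted p = 0.00415). The mid dose was 1.09 ± 0.15 SE above the low dose (adjusted p = 0.00102), where the level was 7.13. Abca1, in contrast, was lower at each dose, with means of 8.27, 7.77, 7.06 and 6.15, of which the step from mid to high was called (-0.91, adjusted p = 0.0468) and that from low to mid was not (-0.71, 0.516).

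The mid doses of both particle sizes were also compared directly. They differ in mass, 500 against 20 µg/ml, and in nominal surface area, which is dose divided by diameter and stood at 2 and 4 times the low dose, so size and dose cannot be told apart. With 500 nm silica 138 genes were higher (1.11%) and 153 lower (1.23%) than with 10 nm silica. The genes that were lower were led by Rhob, which reached 10.98 with the small particles and 7.93, 7.82 and 7.13 with the large ones (500 nm minus 10 nm -3.36 ± 0.28 SE, adjusted p = 4.05e-07). Klf2 was at 10.45 and 7.26 ± 0.13 (SD, n = 3; -3.19 ± 0.13 SE, adjusted p = 4.02e-11), and Egr2 at 11.34 and 8.21 ± 0.06 (-3.12 ± 0.15, adjusted p = 3.77e-10). Of the immediate early genes 18 of 33 were lower with 500 nm silica and 0 higher. Ndrg1 (-1.98), Hbegf (-1.50), Hilpda (-1.35) and Ccl4 (-1.29) were lower as well. Cxcl2 was at 11.93 with 10 nm and 11.73 ± 0.07 with 500 nm silica, with a difference of -0.21 ± 0.13 SE that did not pass (adjusted p = 0.801).

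Fewer genes stood well above their level with 10 nm silica, 5 of the 138 by at least 2-fold. Slc40a1 was at 6.58 with 10 nm silica, near the 6.44 of untreated cells, and at 8.21 with 500 nm silica (difference 1.63 ± 0.21 SE, adjusted p = 0.000122). Slc7a11 was at 7.62 and 8.59 ± 0.21 (0.96 ± 0.13 SE, adjusted p = 0.00021), Ddit3 at 8.41 and 9.15 ± 0.03 (0.74 ± 0.12, adjusted p = 0.00113) and Tent5c at 8.09 and 8.97 ± 0.13 (0.88 ± 0.17, adjusted p = 0.00534). The zinc finger gene Zfp958 (1.30) and Gfi1 (1.22) were higher with 500 nm silica, while with 10 nm silica they were at 6.19 and 4.44, down from 8.25 and 6.55 in untreated cells. Zfp958 itself was at 7.48 ± 0.09 with 500 nm silica (log2 change from untreated cells -0.76, adjusted p = 0.0126), a call that ended without untreated replicate 3 (0.0836) or mid dose replicates 1 (0.0655) and 3 (0.0558). Klf4 was at 7.42 both in untreated cells and with 10 nm silica at 20 µg/ml, and at 6.27 with 500 nm silica (-1.15 ± 0.17 SE, adjusted p = 0.000528), but it was at 6.19 with 10 nm silica at 5 µg/ml. Of the sterol genes 2 of 19 were higher with 500 nm silica and 0 lower. The count of 198 higher probe sets in this comparison became 113, 88 and 110 without 500 nm replicates 1, 2 and 3 and 77, 130 and 110 without 10 nm replicates 1, 2 and 3, and the 294 lower ones became 192 without 10 nm replicate 2.

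**Figure D4:**
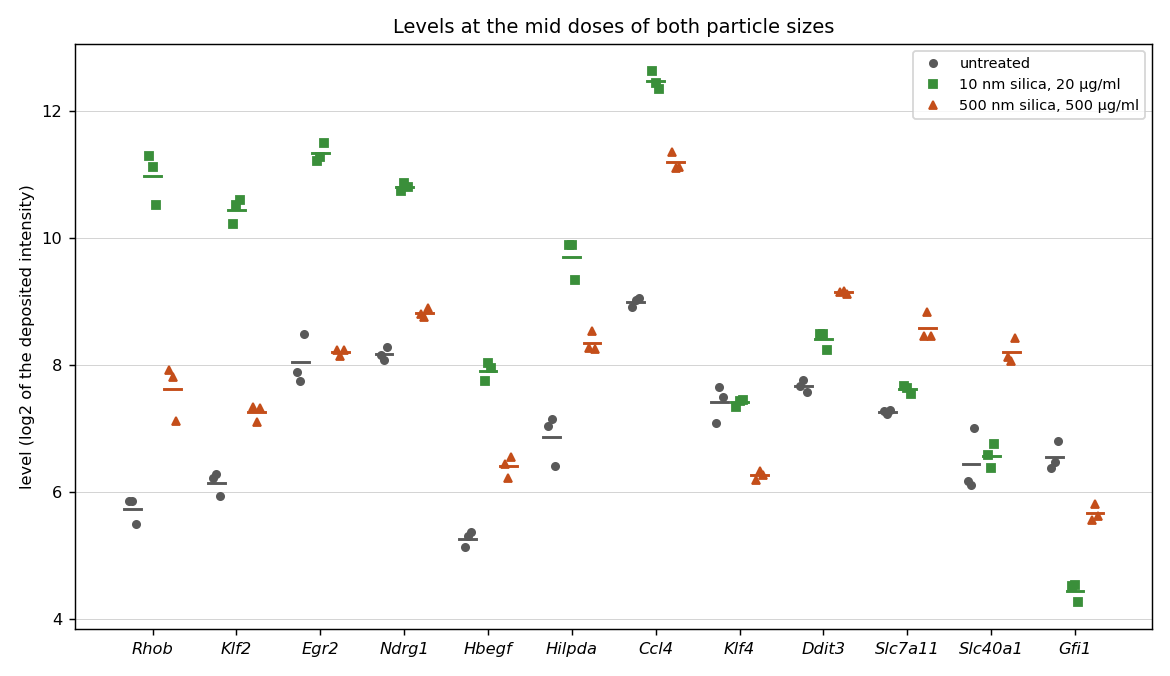
Levels of 12 genes on each array (y axis, log2 of the deposited intensity) in untreated cells (grey circles), with 10 nm silica at 20 µg/ml (green squares) and with 500 nm silica at 500 µg/ml (orange triangles); bars are means of 3 arrays. Rhob, Klf2 and Egr2 are higher with 10 nm silica, Slc40a1 is higher with 500 nm silica only, and Klf4 is lower with 500 nm silica only at these doses.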

How the data were processed

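RNA was primed with oligo-dT, so transcript 3 prime ends weigh most, and was measured on Affymetrix arrays, per the labels' protocols. The deposited values are log10, 1 per probe set and array, and were made by the authors. RMA is the method named, per the submitters' processing notes. For its version and settings, the sources used here give nothing. The log base was read from the values: the highest, 4.34, is 22019 intensity units in base 10 and 20.3 in base 2. They were multiplied by 3.32 to give log2. RMA usually gives arrays a common distribution, which would remove a shift shared by most genes. The deposited arrays still differed, with medians of 6.15 to 6.28 and SDs of 2.46 to 2.67 over the non-control probe sets (log2). Arrays have no read depth, and their number limits the precision.

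Samples were grouped by title. limma 3.58.1 in R 4.3.3 fitted the 7 group means on 21 arrays (lmFit and eBayes, two-sided, 14 residual and 4.02 prior degrees of freedom, median residual SD 0.19), with Benjamini-Hochberg adjustment over 22626 probe sets. The platform annotation, which may be dated, gave 20380 of them 1 gene symbol, 691 more than 1 and 1555 no symbol, and 20351 matched the reference by gene ID. Of 565 called probe sets 514 had 1 symbol. Named genes were the 15 largest called rises and falls without overlap of the arrays, 3 each in the other comparisons, and up to 4 called members of each list, or else the one with the smallest p. Other members are given as values. The members and lists were chosen with earlier results of these data known; 568 of 633 list entries were measured. Same-numbered arrays deviated together in the mid and low dose of 500 nm silica (r = 0.19, 0.52 and 0.60), though the labels do not say what a number marks. Alternatives were 3 scalings, a filter on dim probe sets, 2 ways to summarise genes, the 6 arrays alone, an intensity trend, array weights, a replicate block and each array left out. The code was tested on simulated data. Figures were drawn with matplotlib 3.10.9.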

Additional observations from a re-analysis of the deposited data

Results flagged for a closer look

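Among the 15 largest rises and falls at 500 µg/ml of 500 nm silica, 12 genes differed from 10 nm silica at 20 µg/ml when the particle sizes were compared directly (limma over all probe sets). Of all 12393 genes, 138 were called higher (1.11%) and 153 lower (1.23%) in that comparison. The largest rises and falls were picked on the same mid dose arrays that enter it, so the 12 are a description. Size and dose cannot be told apart there. Rhob had a log2 change from untreated cells of 1.89 with 500 nm and 5.24 with 10 nm silica, a difference of -3.36 (adjusted p = 4.05e-07). Ccl4 had 2.19 and 3.48, a difference of -1.29 (adjusted p = 2.64e-06). Slc40a1 had 1.77 and 0.14, a difference of 1.63 (adjusted p = 0.000122). Gfi1 had -0.89 and -2.11, a difference of 1.22 (adjusted p = 0.000222). Klf4 had -1.15 and -0.0028, a difference of -1.15 (adjusted p = 0.000528). The other 7 differences were smaller than 2-fold. Dusp1 (-0.84, adjusted p = 2.6e-05), Jun (-0.78, 0.00112), Gadd45b (-0.60, 0.00833), Atf3 (-0.57, 0.00594) and Rgs1 (-0.46, 0.00587) were lower with 500 nm silica. Tent5c (0.88, adjusted p = 0.00534) and Sesn1 (0.88, 0.00154) were higher with it. In each of these 12 genes the 3 arrays of one size lay beyond the 3 of the other, as in every gene called in this comparison. Of all 12393 genes, this was so for 1300 that were higher with 500 nm silica and 819 that were lower.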

How the results depend on the processing

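The 76 called of the 85 named genes kept their direction under every alternative run. Among the 9 others Rps24 (0.32) was at -0.02 with array weights and at -0.01 without untreated replicate 3. Probe set counts are given as higher and lower. Fitting only the 6 arrays gave 87 and 41 against untreated cells (224 and 341 with all 21), 29 and 19 for high against mid dose (120 and 266), and 86 and 192 against 10 nm silica (198 and 294), and it ended the calls of 28 named genes (Abca1, Gfi1, Pim1, Calhm2, Zfp958, Cflar, Nfkbiz, Osgin1, Slc30a1, Dnajb9, Herpud1, Hsd17b7, Sc5d, Msmo1, Hmgcs1, Mylip, Ndrg1, Vegfa, Pdgfb, Rhoc, Tlr4, Fcgr2b, Naip5, Bbc3, Ifit2, Cmpk2, Usp18 and Cdkn1a). Array weights gave 2022 and 1856, 2464 and 2802, and 1659 and 1170 in the same order, and 273 and 245 for mid against low dose (63 and 33). With 1 probe set per gene 187 were lower against untreated cells, 8 against the low dose, 154 for high against mid dose and 162 against 10 nm silica; with the mean of a gene's probe sets the last 3 were 13, 152 and 168, Herpud1 (adjusted p = 0.111), Ndrg1, Rhoc and Cmpk2 lost their calls, and Cysltr1 gained one (-0.40, 0.0354). Rescaling gave 185 and 146 for high against mid dose, and median centring 167 lower. Leaving out 1 array gave 163 to 205 and 160 to 313 against untreated cells, 34 to 47 and 13 to 17 against the low dose, 57 to 109 and 78 to 180 for high against mid, and 77 to 130 and 192 to 221 against 10 nm silica. Median centring, quantile normalization, the brighter probe sets, and the trend kept both counts against untreated cells within a factor of 1.5 of those given.

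With the replicate number as a block the counts were 415 and 726 against untreated cells, 102 and 55 against the low dose, 301 and 591 for high against mid, and 409 and 479 against 10 nm silica. Same-numbered arrays of the mid dose and untreated cells had deviations that correlated at -0.33, 0.56 and 0.55. Those of different number ran from -0.65 to 0.56. For replicates 1, 2 and 3 the same-numbered correlations were 0.04, 0.78 and 0.68 between the high and mid dose. Between the mid doses of both sizes they were -0.29, 0.64 and 0.71. In each of the 7 groups replicate 3 had the lowest median and the lowest SD over probe sets. Arrays numbered 2 and 3 thus shared deviations across groups, which those numbered 1 did not in all of them. The labels do not say what a number marks, so what these arrays share cannot be told, and the main fit has no term for it. The block added the calls of Hspa4l (adjusted p = 0.0478), Atp6v1h (0.0464) and Cox7c (0.0282) and ended none among the named genes. Array weights called these 3 as well (0.0408, 0.0128 and 0.00011), with Egr2 (0.00415) and Gpr34 (0.0129). Cox7c was also called without mid dose replicate 2 (-0.75, adjusted p = 0.017) and Gpr34 without untreated replicate 2 (-0.52, 0.036). With 3 arrays a group and 1 time, changes smaller than the spread between arrays could not be detected.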

Other observations

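Of the genes called at 500 µg/ml of 500 nm silica, 80 of the 151 that rose and 163 of the 175 that fell belong to none of the lists. The genes in this section were picked from them after their values were seen, so their counts and values are descriptions. Acod1, which makes itaconate, was at 7.70, 7.53 and 7.80 in untreated cells and at 8.62, 8.68 and 8.55 with silica (log2 change 0.94 ± 0.10 SE, limma adjusted p = 1.16e-05). Gch1, which starts the synthesis of tetrahydrobiopterin, had a log2 change of 0.91 (adjusted p = 0.00101). The complement receptor gene C3ar1 (1.02), the chemerin receptor gene Ccrl2 (1.09), the protein C receptor gene Procr (1.02) and Tnfrsf12a, the receptor for TWEAK (1.21), rose too, as did the transcriptional regulators Bhlhe40 (1.15), Tiparp (1.11) and Crem (1.01). On the other side Cx3cr1, the fractalkine receptor, fell by 0.69, from 11.19, 11.31 and 11.39 to 10.54, 10.50 and 10.77 (adjusted p = 0.00267). All of these calls held without any one of the 6 arrays.

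The lysosome list had 0 of 25 called by limma (1 higher and 1 lower at an unadjusted p under 0.05). Outside it, Rab7b, a GTPase of late endosomes, moved from 9.02, 9.05 and 9.17 to 10.01, 9.61 and 9.91 (log2 change 0.76 ± 0.12 SE, adjusted p = 0.00123). Cln8, which helps export lysosomal enzymes from the endoplasmic reticulum, had a log2 change of 0.78, Rilpl2 of 0.60 and Vps37c, a subunit of ESCRT-I, of 0.53. Rab20 had 1.49 (5.65, 5.64 and 4.72 to 6.69, 7.23 and 6.57, adjusted p = 0.0144). Its call ended without untreated replicate 3 (1.18, adjusted p = 0.102) and without mid dose replicate 2 (1.29, 0.0849). Over all 56 measured Rab symbols 2 were higher (3.57%) and 0 lower, against 1.22% and 1.41% of all genes, with a median of 0.04.

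Tal1, a transcription factor of blood cell development, fell from 7.85, 7.53 and 7.73 to 6.93, 7.12 and 6.89 (log2 change -0.72 ± 0.11 SE, adjusted p = 0.000546) and kept its call without any one array. Cebpa (-0.69, adjusted p = 0.0478) and Lyl1 (-0.42, 0.0314) lost theirs without any one of the 6 arrays (adjusted p up to 0.271 and 0.163), and Hhex (-0.79, 0.0412) without 4 of them, with an adjusted p of 0.243 without untreated replicate 3. Ets2 (0.56) and Runx1 (0.42) were higher, the latter with an adjusted p of 0.0641 to 0.187 without 1 array. Of 197 measured Zfp and Zbtb symbols, mostly zinc finger genes, 3 were higher (1.52%) and 12 lower (6.09%), against 1.22% and 1.41% of all genes. Their median log2 change was -0.07 at 250, -0.07 at 500 and -0.12 at 1000 µg/ml, against 0.0031, 0.0231 and 0.0726 for all genes, and the 3 doses share their untreated arrays. Their median level, 6.08, was below that of all genes, 6.66.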
